A study of Mus musculus with 9 samples.

Results

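LTRIS and MuRRS elements are mouse endogenous retroviruses, remnants of retroviral infections of the germ line. MuRRS names an internal part of such elements and LTRIS names long terminal repeats (LTRs), the identical sequences that a provirus carries at each end. Paired LTRIS2 copies mostly flanked an internal sequence other than MuRRS, as described below. In a full provirus the RNA starts within the upstream LTR and ends at a polyadenylation signal within the downstream LTR, so an LTR holds both a promoter and a transcript end. Recombination between the 2 LTRs of a provirus leaves a solitary LTR, the state in which most LTR copies of a genome are found. Members were all rows of the count table whose repeat name started with LTRIS or MuRRS, without regard to case. There were 1503 such copies, of 623916 in the table, under 11 repeat names of 1034. They comprised 813 LTRIS copies and 690 MuRRS internal copies, and together they held 0.285% of all counts.

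RNA came from mouse embryonic stem cells (ESCs), cultured pluripotent cells derived from blastocysts. The lines had a C57BL/6 background and were used at early passage, once feeder cells had been taken out. The 9 libraries comprised 3 of WT ESCs, 3 of G1 Terc-/- ESCs and 3 of G4 Terc-/- ESCs, where Terc encodes the RNA component of telomerase and G1 and G4 are the first and the fourth generation of mice without it. Per the study's methods, G1 lines came from blastocysts of Terc+/- parents and G4 lines from blastocysts of G3 Terc-/- parents, so the groups differ in cell line as well as in genotype and telomere length, and these cannot be told apart. The study's methods speak of a pair of biological replicates per line, whereas the labels list 3 libraries per group. Whether these came from separate cultures is therefore unclear, and p-values therefore measure the spread between these libraries, which may be technical. The comparison addresses how retroelement RNA differs between ESCs with long and with short telomeres. No repeat copy with a row overlaps Terc, so the groups rest on the labels.

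Values are estimated read counts per single copy on the mm10 assembly, with library totals of 918879 to 1137257. Levels are given as CPM, each count relative to the library total of the whole table in units of 1e+06, after scaling by TMM, a method that sets the libraries to a common trimmed mean. The table has no rows for genes, so the cell type was read from repeat copies in exons of marker genes. Of 18 pluripotency markers, 8 held such copies, and their summed level was 9186 to 9628 CPM in WT, 13070 to 13840 CPM in G1 and 25080 to 29330 CPM in G4 libraries. Most of the G4 sum came from Tdgf1, Tfcp2l1 and Nanog, and the list did not move as a whole, since Cdh1 averaged 1187, 1133 and 505 CPM and Lin28a 502, 444 and 462 CPM in WT, G1 and G4. Of 14 feeder fibroblast markers, 6 held copies, and these summed to 85.6 to 125.8 CPM in WT, 111.1 to 148.2 CPM in G1 and 133.0 to 136.1 CPM in G4 libraries, so that G4 stood above WT. Col1a1 averaged 43.8, 67.4 and 87.5 CPM in the 3 groups and Fn1 5.69, 12.7 and 27.2 CPM, and Pdgfra averaged 47.9, 26.5 and 6.11 CPM. The part of these cells in the results that follow was not tested. Of 10 primitive endoderm markers, 5 held copies. Their summed level was 4416 to 4545 CPM in WT, 1908 to 2048 CPM in G1 and 101.1 to 124.0 CPM in G4 libraries, so the 3 groups did not overlap. Most of it came from exonic copies of Col4a2, a basement membrane collagen, at 3482 ± 54.0 CPM in WT libraries, 1545 ± 48.9 CPM in G1 libraries and 88.9 ± 9.93 CPM in G4 libraries (SD, n = 3), and of the transcription factor gene Gata4, at 743 ± 42.4, 333 ± 29.5 and 19.5 ± 6.20 CPM. Dab2 had 7 counts over the WT libraries and none in the others.

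Annotated transcripts show how the LTRs are built. The GENCODE M21 annotation of mm10 placed 27 transcript 3′ ends inside members, 26 of them in LTRIS copies on the strand of the LTR and 1 on the other strand. The 26 fell on 23 distinct positions. Of these positions, 17 lay 75 to 92 bases before the downstream end of the LTR, a range read off after the positions were seen, and 17 of the 17 had the polyadenylation signal AATAAA within their last 40 bases. Over all 23 positions the share with AATAAA was 73.9%, and over 141704 GENCODE transcripts it was 25.8%. The signal ATTAAA was found at 0 of the 23 positions and in 8.05% of all transcripts. The reverse complements of these motifs were found at 0 positions and in 3.19% and 2.81% of all transcripts. Among LTRIS copies of 400 to 600 bases, 3.01% held a transcript end on their own strand and 0.151% one on the other strand. Among 19857 other LTR copies of that length the shares were 1.39% and 0.645%.

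The last 130 bases of 5 non-coding transcripts that end in a tested LTRIS copy are given, read 5′ to 3′ with T for U from the GENCODE M21 transcripts, because these LTRs include 4 that rose in G4 or in both Terc-/- groups and represent LTRIS2, LTRIS4A and LTRIS_Mus. Capitals mark AATAAA. All lie on mm10. The 1500011B03Rik transcript ends in LTRIS2 (chr5:114821935-114822064, minus strand), Gm26715 in LTRIS4A (chr13:66365643-66365772, plus strand), Gm26806 in LTRIS4A (chr13:66503160-66503289, minus strand), 4632415L05Rik in LTRIS_Mus (chr3:19898855-19898984, plus strand) and Snhg17 in LTRIS_Mus (chr2:158353700-158353829, minus strand).
1500011B03Rik: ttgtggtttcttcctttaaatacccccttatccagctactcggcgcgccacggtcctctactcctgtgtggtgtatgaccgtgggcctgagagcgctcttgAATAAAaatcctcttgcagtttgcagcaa
Gm26715: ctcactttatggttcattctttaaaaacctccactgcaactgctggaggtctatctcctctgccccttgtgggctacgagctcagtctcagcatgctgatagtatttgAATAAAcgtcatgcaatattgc
Gm26806: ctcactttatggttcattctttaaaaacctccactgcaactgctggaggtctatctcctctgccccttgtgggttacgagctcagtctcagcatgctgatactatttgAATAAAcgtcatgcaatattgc
4632415L05Rik: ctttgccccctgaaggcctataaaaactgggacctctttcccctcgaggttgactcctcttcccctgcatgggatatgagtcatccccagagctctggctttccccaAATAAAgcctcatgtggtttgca
Snhg17: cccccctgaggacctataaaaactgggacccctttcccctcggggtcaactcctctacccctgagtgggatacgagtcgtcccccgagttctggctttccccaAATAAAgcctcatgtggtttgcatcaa
The signal started 22 to 29 bases before the annotated end in each. The ends of the LTRIS4A transcripts Gm26715 and Gm26806 were identical at 128 of 130 bases. The LTRIS_Mus ends of 4632415L05Rik and Snhg17 shared 112 of 126 bases once shifted by 4 bases.

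**Figure D1:**
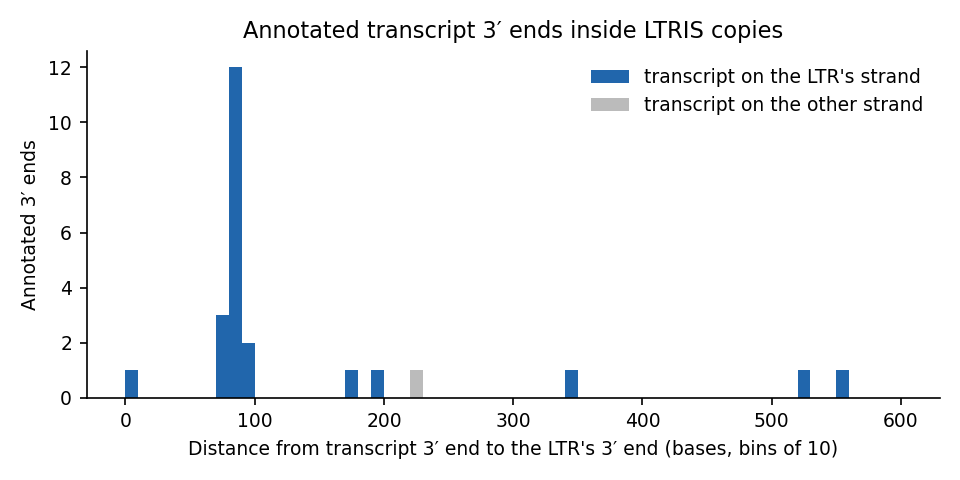
Annotated transcript 3′ ends inside LTRIS copies, as the number of distinct ends (y axis) by their distance in bases from the 3′ end of the LTR (x axis, bins of 10), with colour for the strand relation. The ends on the strand of the LTR gather at 75 to 92 bases, where 17 of 23 lie.

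Transcripts also start in members. GENCODE placed 12 transcript starts there, 8 on the strand of the element and 4 on the other. Platr13, a long non-coding RNA gene named for its link to pluripotency, starts 138 bases into the upstream LTRIS2 LTR of an element whose level was lower in both Terc-/- groups, and its first exon lies wholly within that LTR (chr11:41218837-41218936, plus strand, mm10). It is shown because it is an exon made of the upstream part of an LTRIS2 copy, and no base is capitalized.
Platr13: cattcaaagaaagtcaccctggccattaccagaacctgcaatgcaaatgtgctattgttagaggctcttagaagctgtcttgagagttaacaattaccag

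The 11 names differed much in abundance. LTRIS2 had 351 copies and 14394 counts over the 9 libraries, LTRIS_Mus 208 copies and 5461 counts, MuRRS4-int 523 copies and 2423 counts, and MuRRS-int 167 copies and 1474 counts. The other 7 names had 9 to 109 copies and 42 to 875 counts each. By GENCODE, 848 member copies (56.4%) lay over 5 kb from any gene, compared with 14.1% of all copies in the table, and 44 (2.93%) were exonic, compared with 6.91%. The exonic copies held 28.1% of member counts, compared with 47.4% of all counts in the table. At 665 member copies some value was not whole. Reads shared between near-identical copies appear to have been divided there, by a method not given in the sources used here, and the share of each such copy is uncertain. MuRRS internal copies were most frequent on chromosome Y, with 348 of 690. These 348 held 66.05 counts over 9 libraries, their values were all whole at 1.15% of them, and the divergence field of the row name, which the file does not label and which was read as divergence from the consensus with 10 units to 1%, had a median of 307.5, compared with 215.5 in the 342 other MuRRS copies.

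The summed level of all 1503 members was highest in WT and lowest in G4. The WT libraries had 3529, 3756 and 3618 CPM, the G1 libraries 3056, 3021 and 2992 CPM and the G4 libraries 1920, 1955 and 2093 CPM, so no library of a group overlapped another group. The G4 mean was 0.547 of the WT mean and the G1 mean 0.832 of it. These sums are given without a test. Over the copies with whole values alone, which leave out most LTRs of the paired elements described later, the log2 ratio of G4 to WT was −0.11, compared with −0.87 over all members, and that of G4 to G1 was 0.15, compared with −0.60. In bulk RNA, fewer cells of a type and less RNA per cell cannot be told apart, which applies to each difference below. The 47 copies that passed the filter on low counts went from 2861 ± 80.0 CPM in WT to 2281 ± 65.7 in G1 and 1246 ± 63.2 in G4. The other 1456 copies summed to 773 ± 65.7, 742 ± 35.3 and 744 ± 39.1 CPM and overlapped between groups (SD, n = 3). Some copies passed the filter only through the group where they were high, so the split between tested and other copies is partly set by the difference itself.

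Of the 9 repeat names that passed the filter on low counts, 3 fell and 2 rose in G4 compared with WT ESCs by the quasi-likelihood test of edgeR, at a Benjamini-Hochberg adjusted p under 0.05 over all 853 repeat names tested. Members called lower were thus 33.3% and members called higher 22.2%, beside 23.4% called lower and 23.1% called higher among all names. The median log2 fold change of the 9 was 0.10, beside 0.00 over all names. LTRIS4B and LTRIS6 were not tested, with 47 and 42 counts in all.

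LTRIS2, the most abundant name, fell. Its level was 2353, 2463 and 2352 CPM in WT, 1888, 1807 and 1808 in G1 and 612, 632 and 686 in G4, a log2 fold change of −1.89 ± 0.05 in G4 compared with WT (SE; edgeR adjusted p = 5.21e-17). Over copies more than 5 kb from genes it was −2.70. MuRRS-int, the internal sequence of MuRRS proviruses, fell from 244, 234 and 238 CPM in WT through 142, 182 and 164 in G1 to 107, 90.0 and 82.9 in G4 (log2 fold change −1.36 ± 0.12, adjusted p = 8.04e-09). For both names the 3 groups did not overlap. MuRRS-int had 696, 477 and 301 counts in WT, G1 and G4. Of these, 240, 134 and 11 lay in the copy in Hdc and 196, 104 and 0 in that at chr5:15542422-15546902. These copies thus carried most of the fall of MuRRS-int in each comparison, and the name was not fitted without both. MuRRS4-int fell less, from 259, 333 and 318 CPM in WT to 240, 206 and 231 in G4 (−0.42 ± 0.10, adjusted p = 0.0015), with G1 at 273, 289 and 267, overlapping WT. Over copies more than 5 kb from genes the calls of MuRRS-int (−0.22, adjusted p = 0.583) and MuRRS4-int (−0.12, adjusted p = 0.56) were lost.

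LTRIS4A rose in both Terc-/- groups. It stood at 48.2, 57.3 and 70.9 CPM in WT, 82.1, 86.6 and 90.5 in G1 and 150, 136 and 132 in G4, and the log2 fold change was 1.24 ± 0.14 in G4 compared with WT (adjusted p = 5.29e-07). LTRIS_Mus rose in G4, while WT and G1 overlapped, with 525, 541 and 498 CPM in WT, 522, 521 and 523 in G1 and 675, 747 and 810 in G4 (0.52 ± 0.07, adjusted p = 3.99e-06). That rise was lost without its leading copy, in the Adi1 gene, when the log2 fold change was 0.07 (adjusted p = 0.563). The remaining 4 tested names overlapped between groups and were not called in any comparison. LTRIS_Mm averaged 59.1, 69.2 and 69.5 CPM in WT, G1 and G4, LTRIS4 32.6, 29.6 and 30.5 CPM, LTRIS3 17.8, 28.0 and 22.1 CPM and LTRIS5 7.01, 6.82 and 7.61 CPM.

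**Figure D2:**
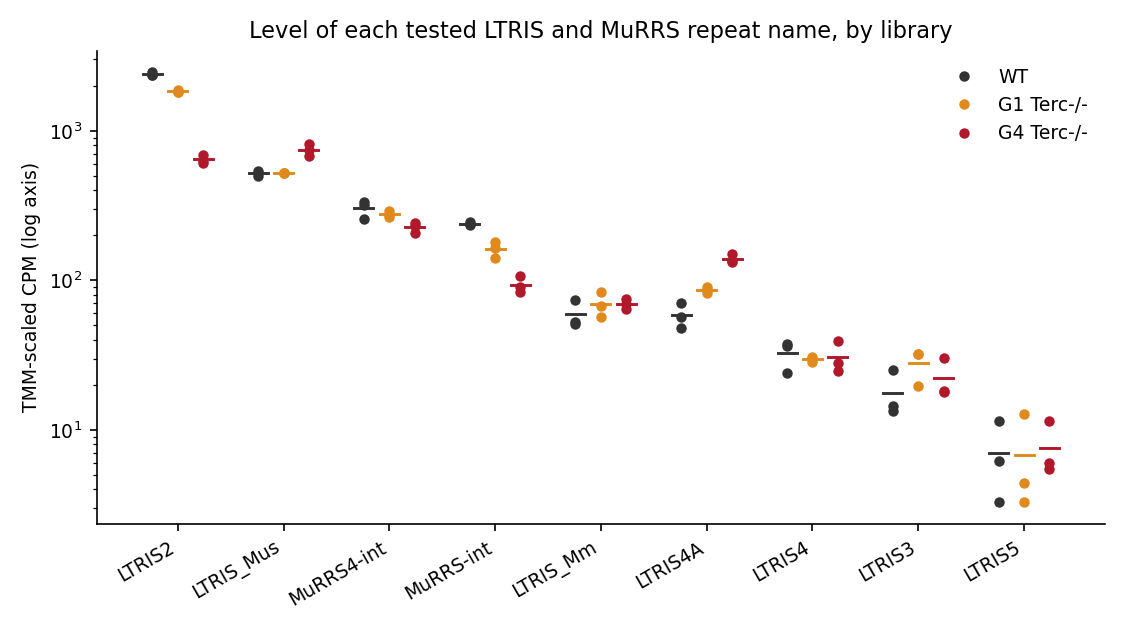
Level of each tested repeat name in TMM-scaled CPM (y axis, log), with a point per library and a line at the mean of each group of 3. LTRIS2 and MuRRS-int step down from WT through G1 to G4, LTRIS4A steps up, and LTRIS3, LTRIS4, LTRIS5 and LTRIS_Mm overlap between groups.

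The difference between WT and G1 ESCs was smaller. Of the 9 names, 2 were lower and 1 was higher in G1, which is 22.2% and 11.1%, beside 6.33% and 5.51% among all names. LTRIS2 fell by 0.38 ± 0.05 on the log2 scale (adjusted p = 1.37e-05) and MuRRS-int by 0.55 ± 0.11 (adjusted p = 0.00258). LTRIS4A rose by 0.55 ± 0.16 (adjusted p = 0.0277), but this call was lost when WT replicate 1 or 2 or any G1 replicate was left out, with adjusted p from 0.0535 to 0.118, and by DESeq2 (adjusted p = 0.0521). The calls of LTRIS2 and MuRRS-int were lost over copies more than 5 kb from genes (−0.22, adjusted p = 0.0926, and 0.04, adjusted p = 0.961), and that of MuRRS-int also without its leading copy (−0.41, adjusted p = 0.0593).

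Comparing G4 with G1, 3 names were lower and 2 higher, beside 23.0% called lower and 19.5% called higher among all names. LTRIS2 fell by 1.51 ± 0.05 (adjusted p = 3.71e-15), MuRRS-int by 0.81 ± 0.13 (adjusted p = 2.59e-05) and MuRRS4-int by 0.29 ± 0.10 (adjusted p = 0.024) on the log2 scale. LTRIS4A rose by 0.68 ± 0.14 (adjusted p = 0.000369) and LTRIS_Mus by 0.51 ± 0.07 (adjusted p = 7.08e-06). Over copies more than 5 kb from genes, LTRIS2 fell by 2.48, and the calls of MuRRS-int (−0.26, adjusted p = 0.567) and LTRIS_Mus (0.38, adjusted p = 0.0969) were lost. Over copies with whole values LTRIS2 fell by 0.74. The MuRRS4-int call was lost without G1 replicate 2 or G4 replicate 2, with adjusted p of 0.0981 and 0.116, with library totals (0.268) and by DESeq2 (0.0597). Without the Adi1 copy LTRIS_Mus turned to −0.10 (adjusted p = 0.41).

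LTRIS2 RNA lay mostly outside exons, and there the G4 level was lowest relative to WT. The 150 LTRIS2 copies over 5 kb from genes summed to 1125 ± 34.9 CPM in WT, compared with 969 ± 72.4 CPM in G1 and 173 ± 4.92 CPM in G4, which is 0.154 of the WT level. The 121 intronic copies went from 576 ± 34.7 through 362 ± 19.1 to 111 ± 9.63 CPM, and the 66 copies near genes from 261 ± 33.2 through 231 ± 38.0 to 60.4 ± 7.48 CPM. The 14 exonic copies went from 428 ± 15.9 CPM in WT to 273 ± 30.7 in G1 and 299 ± 30.7 in G4, which is 0.699 of the WT level (SD, n = 3 in each). The Prss35 copy carried this difference. Without it, a comparison added after its values were seen, the other 13 exonic copies had 171 ± 19.7, 169 ± 30.1 and 276 ± 28.0 CPM, so that G4 stood above WT and G1. Intronic copies showed the lowest G1 level relative to WT among the non-exonic places, at 0.629, compared with 0.861 for copies far from genes. This order rests largely on single elements, described below. Those at chrX:164048342-164053974 and chr11:57554725-57560469 held 3020 and 2248 of the 6662 counts far from genes. Their LTRs were 1.12-fold and 1.04-fold lower in G1. The element in Rims2 held 1785 of the 3094 intronic counts, and its LTRs were 1.87-fold lower. The order was not checked without these elements.

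**Figure D3:**
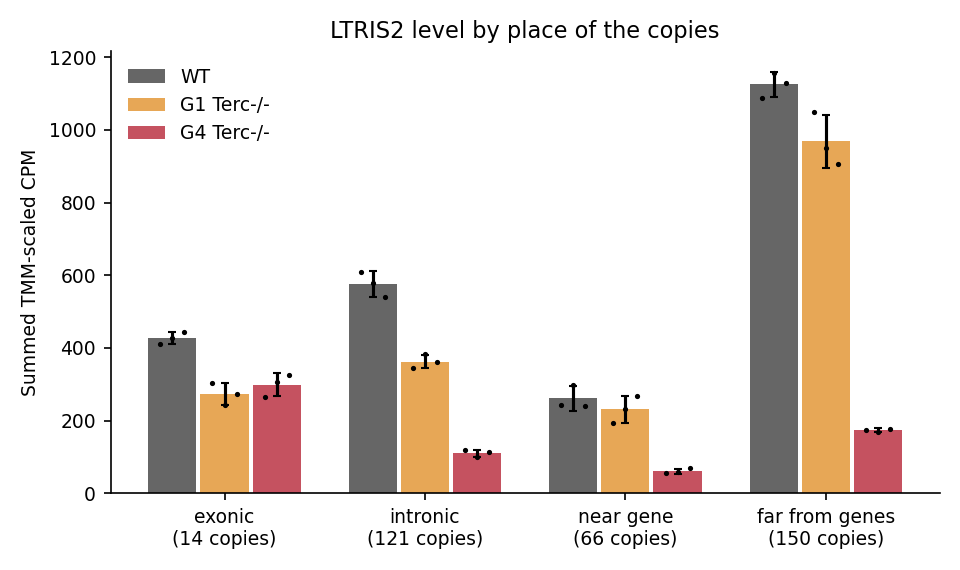
Summed level of LTRIS2 copies in TMM-scaled CPM (y axis) by the place of the copies in the GENCODE M21 annotation, with bars for the mean of 3 libraries, error bars for the SD and points for single libraries. Copies far from genes average 1125 CPM in WT and only 173 CPM in G4, whereas exonic copies average between 273 and 428 CPM, with 1 copy, in Prss35, behind their difference between WT and G4.

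LTRIS2 copies were next grouped by whether they end a longer element. Members of the same name and strand with a gap of 1 to 10 kb between them formed 59 pairs. Of these, 33 were LTRIS2 pairs around RLTR1B-int, an internal sequence with a name of another ERV1 group. The interior of these elements was taken as their RLTR1B-int and RMER16-int copies. A further 7 were LTRIS_Mm pairs around MuRRS sequence, 4 LTRIS_Mus, 2 LTRIS6, 1 LTRIS4, 1 LTRIS4A and 1 LTRIS2 pairs around MuRRS sequence, and 10 held neither. The LTRIS2 and RLTR1B-int elements had a median span of 5613 bases, and 15 of the 33 were on chromosome X. Their 66 LTRs held 59.6% of LTRIS2 counts, and 93.4% of all RLTR1B-int counts lay inside them. These LTRs went from 1552 ± 51.9 CPM in WT to 1123 ± 55.5 in G1 and 197 ± 20.8 in G4. The other 285 LTRIS2 copies went from 800 ± 42.4 to 662 ± 69.7 and 474 ± 18.6 CPM. Of these, 3 copies described below carried the difference between WT and G4. The copy in Prss35 went from a mean of 253.1 CPM in WT to 24.02 CPM in G4. The copy at chr17:37191197-37191653 went from 134.9 to 3.083 CPM and that at chr3:18696521-18697063 from 79.21 to 1.151 CPM. Their falls together exceeded that of the sum, so the remaining copies as a set were not lower in G4 than in WT.

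Of the 33 elements, 12 had at least 50 counts in their LTRs. In 11 of these 12 the LTRs, and in 11 of them the internal sequence, were lower in G4 than in WT, and in 12 of 12 the LTRs were lower in G1. The minimum applied to counts over all 9 libraries, and some of the 12 met it mainly through WT. These shares are thus partly set by the minimum itself. Among the elements under it, those at chr4:42226365-42231979 and chr4:41877124-41882738 had higher LTR levels in G4 than in WT, and the others did not. The LTR levels of these chr4 elements were identical in each group, so shared reads appear to have been divided between them. They are therefore not read as separate rises. The 3 elements with the most LTR counts are described first. The element at chrX:164048342-164053974 (minus strand, over 5 kb from genes) had 499, 444 and 65.4 CPM in its LTRs and 5282, 4893 and 607 CPM in its internal sequence in WT, G1 and G4, so that the LTRs were 1.12-fold lower in G1 and 7.63-fold lower in G4, and the interior 1.08-fold and 8.71-fold lower. The element at chr11:57554725-57560469 (minus strand, over 5 kb from genes) had LTRs at 363, 348 and 41.5 CPM and an interior at 3125, 2998 and 273 CPM. The element at chr15:39241846-39247522, antisense in an intron of Rims2, a gene of the presynaptic active zone, was 1.87-fold lower in its LTRs in G1. These went through 370, 198 and 31.1 CPM and its interior through 3145, 1513 and 235 CPM.

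Elements with fewer counts included several with a larger step from WT to G1. At chr4:66902056-66907685, in an intron of the lipopolysaccharide receptor gene Tlr4 and on its strand, the LTRs had 86.3, 34.2 and 5.11 CPM and the interior 622, 206 and 23.4 CPM. At chr17:40178424-40184036 the LTRs had 36.4, 11.7 and 1.18 CPM and the interior 320, 112 and 14.4 CPM. At chr11:41218699-41224338, the element whose upstream LTR holds the first exon of Platr13, the LTRs had 43.9, 16.2 and 3.75 CPM and the interior 255, 77.6 and 14.3 CPM. In 6 of the 12 elements the LTRs, and in 6 the interior, were at least 2-fold lower in G1 than in WT. The count minimum partly sets these shares too, and the share over other elements of the table was not computed. The element at chr13:62552048-62557711 was not lower in G4. One of its LTRs is exonic in the zinc finger gene Zfp934, and its LTRs had 14.2, 12.1 and 15.2 CPM and its interior 45.7, 33.1 and 70.6 CPM. Per kb, the internal sequence stood above the LTRs in WT in 9 of the 12, and in 11 of the 12 the downstream LTR was above the upstream LTR in WT. LTRs and interior of an element may share a transcript, which was not tested. Reads of near-identical LTRs may also have been divided between the LTRs. These values are therefore not treated as independent.

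**Figure D4:**
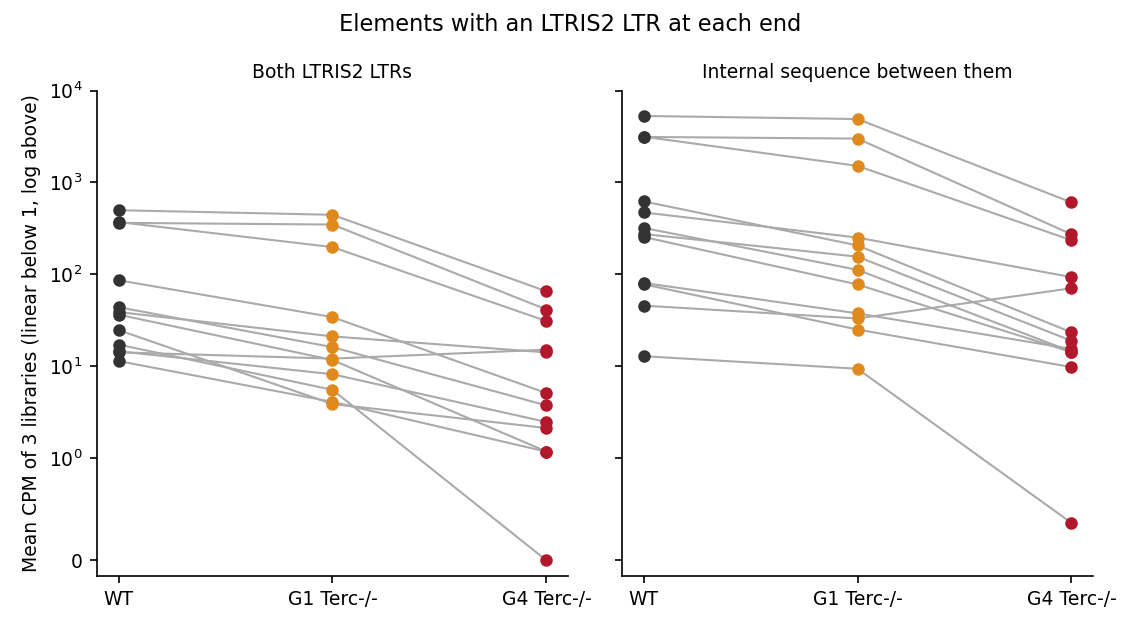
Mean CPM of 3 libraries (y axis, linear below 1 and log above) in WT, G1 and G4 for the 12 elements with an LTRIS2 LTR at each end and at least 50 LTR counts, for both LTRs summed (left) and for the internal sequence between them (right). Lines join the same element; 11 of 12 end lower in G4 than in WT in each panel, and the element in Zfp934 does not.

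RLTR1B-int as a whole fell from 11640 ± 459 CPM in WT through 9068 ± 375 in G1 to 1550 ± 16.8 in G4 (log2 fold change in G4 −2.91 ± 0.04, edgeR adjusted p = 7.65e-22), and RMER16-int from 3250 ± 127 through 2497 ± 106 to 809 ± 63.2 CPM (−2.01 ± 0.06, adjusted p = 5.21e-17). The primitive endoderm markers moved the same way over the 3 groups, from 4416 to 4545 CPM in WT to 101.1 to 124.0 CPM in G4 as given above. The sum of the pluripotency markers moved the opposite way, but Cdh1 among them did not. Their part in the fall of LTRIS2 and of the elements that it ends was not tested.

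Of the 47 member copies tested, 21 fell and 9 rose in G4 compared with WT, which is 44.7% and 19.1%, beside 21.3% called lower and 21.3% called higher among all 13278 copies tested. The median log2 fold change was −0.67, beside −0.02 over all copies. The falls comprised 16 of 21 LTRIS2 copies, 2 of 5 MuRRS-int and 3 of 7 MuRRS4-int copies, and the rises 3 of 3 LTRIS4A, 2 of 21 LTRIS2, 2 of 9 LTRIS_Mus, the 1 LTRIS_Mm and 1 MuRRS-int copy. Of the copies that fell, 20 of 21 lay outside exons, and of those that rose 6 of 9 were exonic. Among the 47 tested, 34 lay outside exons and 13 were exonic. Of the 16 LTRIS2 copies that fell, 13 ended 8 of the elements above. Members here are not independent of each other, and shared reads may bear on most of them, since values were whole at 14 of the 47 and at 3 of the 21 that fell. Some of the 47 passed the count filter only through the group where they were high, which partly sets the shares called.

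**Figure D5:**
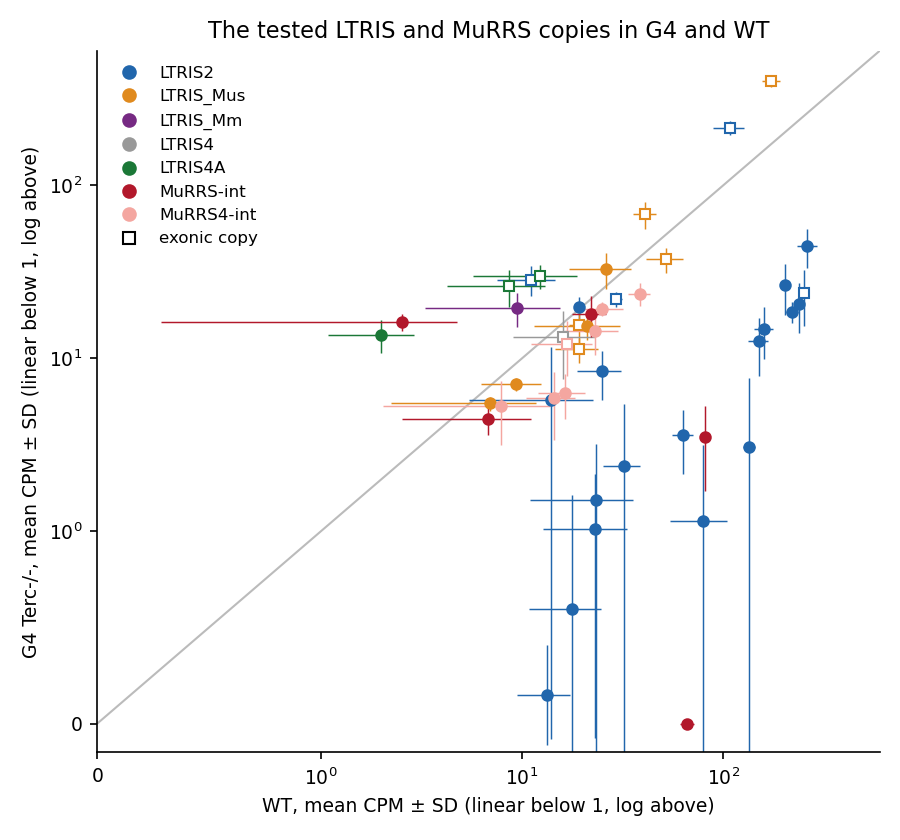
Mean CPM ± SD of 3 libraries for the 47 tested member copies in G4 (y axis) and WT (x axis), both linear below 1 and log above, with colour for the repeat name, open squares for exonic copies and a line of equal level. Most LTRIS2 copies outside exons lie below the line, down to G4 levels near 0. The exonic LTRIS_Mus copy in Adi1 lies above it and has the highest G4 level.

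Beyond the paired elements, 3 LTRIS2 copies fell. The copy at chr9:86757041-86757615 (plus strand) lies in the 3′ UTR of Prss35, a member of the serine protease family, on the strand of the gene, and its values were whole. It had 258, 250 and 252 CPM in WT, 101, 102 and 99.0 in G1 and 17.6, 33.8 and 20.7 in G4, so the 3 groups were far apart. The log2 fold change was −3.37 ± 0.17 in G4 (adjusted p = 1.6e-14) and −1.33 ± 0.14 in G1 (adjusted p = 2.55e-07), both compared with WT. The copy at chr17:37191197-37191653 (minus strand, within 5 kb of a gene) stayed at the WT level in G1. It had 126, 144 and 135 CPM in WT, 122, 150 and 168 in G1 and 8.33, 0 and 0.917 in G4 (G4 compared with WT −5.48 ± 0.36, adjusted p = 2.58e-12, and −7.88 without G4 replicate 1 or −4.88 without G4 replicate 2). The copy at chr3:18696521-18697063 (minus strand, over 5 kb from genes) had 54.4, 104 and 79.1 CPM in WT, 49.2, 31.6 and 81.2 in G1 and 0, 3.45 and 0 in G4 (−5.82 ± 0.54, adjusted p = 2.78e-09, and −9.30 without G4 replicate 2 or −5.23 without G4 replicate 3). No other repeat copy with a row lay within 10 kb of it.

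The LTRs of the paired elements were called one by one. In the Rims2 intron the downstream LTR (chr15:39241846-39242388) fell from 237, 208 and 216 CPM in WT to 132, 114 and 112 in G1 and 19.9, 15.6 and 20.0 in G4 (G4 compared with WT −3.58 ± 0.17, adjusted p = 4.24e-15). The LTR at chrX:164053438-164053974 was at 239, 241 and 232 CPM in WT, 208, 268 and 225 in G1 and 28.1, 15.7 and 18.2 in G4 (−3.54 ± 0.18, adjusted p = 1.58e-14), and its partner at chrX:164048342-164048877, the LTRIS2 copy with the most counts, at 279, 227 and 279, 242, 206 and 183, and 32.2, 54.9 and 47.1 CPM (−2.54 ± 0.16, adjusted p = 2.3e-12). In both, WT and G1 overlapped and G4 stood apart. In the Tlr4 intron the downstream LTR (chr4:66907145-66907685) had 63.6, 70.3 and 55.3 CPM in WT, 18.3, 20.4 and 39.7 in G1 and 3.43, 2.23 and 5.13 in G4, with no overlap of groups (−4.11 ± 0.37, adjusted p = 1.69e-09; G1 compared with WT −1.28 ± 0.26, adjusted p = 0.00242). At low depth, the downstream LTR of the chr17 element (chr17:40183521-40184036) had 33.7, 22.4 and 13.1 CPM in WT and 3 counts over all G4 libraries, a depth-adjusted ratio of 0.0425 with an exact 95% counting interval of 0.00855 to 0.13. Its call in G1 compared with WT (−1.62 ± 0.46, adjusted p = 0.0303) was lost when WT or G1 replicate 1 or 2 was left out, with adjusted p from 0.0778 to 0.22, and with a replicate block (0.0643) or a lower count filter (0.0614). The copy passed the main count filter only through WT, where it was high, so its calls are given as values without weight.

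Among MuRRS internal copies, 2 in introns had the largest falls. The copy at chr2:126608834-126613401 (plus strand), antisense in Hdc, the histidine decarboxylase gene, had 79.2, 79.8 and 84.5 CPM in WT, 41.7, 50.5 and 40.7 in G1 and 3.30, 1.83 and 5.39 in G4. No groups overlapped, and the log2 fold change was −4.47 ± 0.30 in G4 (adjusted p = 4.7e-12) and −0.86 ± 0.19 in G1 (adjusted p = 0.00501) compared with WT. The copy at chr5:15542422-15546902 (minus strand) lies in introns of Gm21847 and Gm30613 between LTRIS_Mm LTRs. It had 60.4, 70.0 and 68.2 CPM in WT, 31.3, 35.4 and 37.4 in G1 and no count in any G4 library. Against a floor of 3 counts over the G4 group it was at least 68.8-fold lower in G4 than in WT (adjusted p = 5.95e-12), and in G1 it fell by 0.93 ± 0.21 on the log2 scale (adjusted p = 0.00748). Its values were whole, and its LTRs went from 11.4 CPM in WT to 4.41 in G1 and 0.305 in G4.

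A provirus at chr17:34825295-34831345, antisense within Stk19, carries LTRIS4 LTRs around 4 tested MuRRS4-int copies, and its interior had a mean of 103, 114 and 69.6 CPM in WT, G1 and G4. Its largest internal copy (chr17:34826527-34828421) had 42.7, 33.4 and 39.4 CPM in WT, 34.4, 45.2 and 35.2 in G1 and 27.5, 20.1 and 23.4 in G4 (−0.71 ± 0.24, adjusted p = 0.0202), a call lost without WT replicate 1 or 3 or G4 replicate 2 or 3 (adjusted p from 0.0505 to 0.0849) and by DESeq2 (0.0852). The other 3 internal copies had log2 fold changes of −0.39, −0.67 and −0.47 with adjusted p of 0.283, 0.101 and 0.315, and the LTR at chr17:34825295-34825783 one of −0.27 (adjusted p = 0.616). A MuRRS4-int copy at chr5:145258597-145260233 (minus strand, over 5 kb from genes) fell from 19.8, 17.8 and 11.5 CPM in WT to 4.397, 6.395 and 8.09 in G4 (−1.33 ± 0.42, adjusted p = 0.0131), and this call was lost without WT replicate 1 or G4 replicate 1 (adjusted p = 0.0568 and 0.0508) and by DESeq2 (0.0515). The other MuRRS4-int copy that fell, named after its values were seen, lies in the same region (chr5:145256694-145257646, −1.24 ± 0.46, adjusted p = 0.0324). It passed the count filter only through WT, where it was high, so its call is given as a value without weight. The MuRRS-int copy at chr17:6921366-6925849, on the strand of Rsph3b, had means of 22.0, 14.2 and 18.04 CPM in WT, G1 and G4 and was not called (−0.27 ± 0.34, adjusted p = 0.558).

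Of the 9 copies that rose in G4, 6 lie in exons. The LTRIS_Mus copy at chr12:28681656-28682252 (plus strand) forms part of the 3′ UTR of Adi1, an enzyme gene of the methionine salvage pathway, and it held more counts than any other member. It had 178, 188 and 154 CPM in WT, 143, 112 and 140 in G1 and 392, 376 and 429 in G4. G4 stood above both other groups (compared with WT 1.21 ± 0.12, adjusted p = 6.94e-09), and its values were whole. The LTRIS2 copy at chr5:114821855-114822401, the LTR that ends the 1500011B03Rik transcript shown above, had 99.0, 95.0 and 130 CPM in WT, 116, 84.2 and 108 in G1 and 204, 203 and 238 in G4 (0.99 ± 0.14, adjusted p = 3.77e-06). Other repeat copies within 10 kb of it summed to means of 226, 233 and 429 CPM. Near the Adi1 copy, other repeat copies summed to 6.71, 9.36 and 7.70 CPM only.

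The LTRIS4A copies that end Gm26806 and Gm26715, a pair of long non-coding RNA genes on chromosome 13, were both higher in G4 than in WT. The copy at chr13:66503074-66503543 had 5.57, 12.5 and 18.6 CPM in WT, 16.9, 13.9 and 16.3 in G1 and 34.5, 29.99 and 25.2 in G4 (1.28 ± 0.34, adjusted p = 0.00353). The copy at chr13:66365389-66365858 had 6.93, 13.6 and 5.36, 13.3, 8.22 and 8.997, and 33.5, 23.8 and 21.5 CPM (1.54 ± 0.37, adjusted p = 0.00157). That copy passed the count filter only through G4, where it was high, so its call is given as a value without weight. The near-identical sequence of these LTRIS4A copies, seen above, leaves the split of reads between them uncertain. Repeat copies around them, within 10 kb, had means of 119, 141 and 311 CPM and of 68.5, 111 and 124 CPM.

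Among the 47 tested copies, the Snhg17 copy was the only one called higher in G1 than in WT. At chr2:158353625-158354174 it had 36.5, 39.7 and 47.0 CPM in WT, 72.0, 62.9 and 72.6 in G1 and 62.7, 82.2 and 60.2 in G4, so that both Terc-/- groups stood above WT and overlapped each other (G4 compared with WT 0.73 ± 0.19, adjusted p = 0.00276; G1 compared with WT 0.74 ± 0.19, adjusted p = 0.015). The G1 call was lost without WT replicate 1 or 2 or G1 replicate 1 or 3 (adjusted p from 0.0538 to 0.0653) and by DESeq2 (0.0589). Snhg17 is a host gene of small nucleolar RNAs. The LTRIS2 copy at chr13:3485528-3486082, in an exon of the lincRNA gene 2810429I04Rik but on the other strand, had 7.29, 11.5 and 14.4 CPM in WT, a mean of 13.95 in G1 and 24.2, 26.5 and 35.1 in G4 (1.36 ± 0.33, adjusted p = 0.0016). The 2 rises not named by the rule were the LTRIS4A copy at chr13:65934016-65934459, over 5 kb from genes (2.69 ± 0.59, adjusted p = 0.000592), and the MuRRS-int copy at chr16:56048537-56052640, mostly intronic in the SUMO protease gene Senp7 but overlapping an exon of it (2.70 ± 0.64, adjusted p = 0.00133), each with under 10 counts per library on average. Both passed the count filter only through G4, where they were high, so their calls are given as values without weight. The LTRIS_Mm copy at chr4:147667768-147668264, with means of 9.40, 20.8 and 19.5 CPM, overlapped between G4 and WT (1.03 ± 0.41, adjusted p = 0.0459) and lost its call without WT replicate 1 or 2, G1 replicate 3 or G4 replicate 1 or 2 (adjusted p from 0.053 to 0.22), with a replicate block (0.0562), by DESeq2 (0.0947) and with a lower count filter (0.135).

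In G1 compared with WT, 8 of the 47 copies fell and 1 rose, 17.0% and 2.13%, beside 4.36% called lower and 2.41% called higher among all copies. The 8 were 6 LTRIS2 and 2 MuRRS-int copies, 5 of them intronic. In G4 compared with G1, 20 fell and 6 rose, 42.6% and 12.8%, beside 19.2% called lower and 19.0% called higher. The comparisons share libraries, so their calls are not independent. Around the 9 copies that rose in G4 compared with WT, the summed level of other repeat copies within 10 kb was higher in G4 without overlap for 7, and overlapped WT for the Adi1 and Senp7 copies. Around the 21 copies that fell, it was lower in G4 without overlap for 17. For LTRs of the paired elements these other copies include the interior of the same element. The share over all copies was not computed, so neither count is read as a trait of the members.

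Related ERV1 groups were set beside the members by their counts. Of the 10 GLn names (RLTR1A to RLTR1F and MMERGLN), which include RLTR1B-int, 3 fell and 3 rose in G4 compared with WT, near the shares of all names called lower and higher (23.4% and 23.1%), with a median log2 fold change of 0.22. Of 8 names of the VL30 and MuLV relatives, 6 fell and 1 rose, with a median of −0.48. In G1 compared with WT, where 6.33% of all names were called lower and 5.51% higher, 1 GLn name fell and 0 rose, and 3 VL30 and MuLV names fell and 2 rose.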

How the data were processed

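RNA of 9 ESC libraries was sequenced (TruSeq). The authors aligned reads to mm10 and deposited an estimated count per repeat copy. The submitters' notes name featureCounts, STAR 2.5.3a and FastQC 0.11.9; how shared reads were divided is not given in the sources used here. A second deposited table held the rounded counts after division by a size factor per library and was not used. Columns named Control were taken as WT. Row starts, counted from 0, were raised by 1.

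Values were summed per repeat name and rounded. The quasi-likelihood test of edgeR 4.0.16 (R 4.3.3) was run on names and, separately, on copies of the whole table, with the 9 libraries in 1 fit, after filterByExpr. TMM factors came from each level's own features with totals of the whole table. Sums over members used the factors of the names. Tests were two-sided and adjusted by Benjamini-Hochberg. SEs were derived from F and the log2 fold change. Common dispersions were 0.00223 for names and 0.0191 for copies. Copies were exonic when at least 0.5 of their length lay in GENCODE M21 exons.

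Library totals of 918879 to 1137257 limit precision: 4-fold changes simulated for G4 compared with WT were recovered for 90.9% of changed copies and 2-fold changes for 62.7% (13278 copies), and for 98.5% and 95.5% of changed names (853 names). Simulated 1.5-fold changes were recovered for 23.9% of changed copies and 83.6% of changed names. The simulation gave every feature the common dispersion and changed far fewer features than were called in the data, so recovery in the data may differ. Intervals and floors cover counting error only.

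Members and lists were chosen with earlier results of these data known. Named were each tested repeat name and its leading copy, called copies averaging 10 or more counts a library whose groups did not overlap (the 10 largest rises and falls in G4 compared with WT and 5 in the other comparisons), and MuRRS internal copies with at least 10 counts per library; other copies named were chosen after their values were seen. Alternatives were other scalings and filters, DESeq2 1.42.0, a replicate block, 2-group fits, a fold rule, the study's rule, leaving out each library, copies with whole values, copies over 5 kb from genes and names without their leading copy, and, added after seeing the data, exonic LTRIS2 copies without that in Prss35. Sequences were read from GENCODE M21 transcripts; members outside transcripts are not shown, since no genome sequence was used here.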

Additional observations from a re-analysis of the deposited data

How the results depend on the processing

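The count of called repeat names was kept within 1.5 times under DESeq2 size factors, library totals, the DESeq2 test, the minimal filter and 2-group fits. Over copies more than 5 kb from genes it was 3, 1 and 2 (G4 and WT, G1 and WT, G4 and G1), where fewer names were tested, with a fold over 2 it was 3, 0 and 1, and by the study's rule 3, 1 and 3, against 5, 3 and 5 in the main analysis; the name called in G1 and WT by the study's rule was LTRIS3 and is none of the 3, and that rule called 12 copies there, of which 4 were among the 9. Without leading copies it was 3 for G4 and G1. Called copies, 30, 9 and 26 in the main analysis, were 6, 4 and 5 among copies with whole values and 11, 0 and 7 far from genes, where fewer copies were tested, and 4 for G1 and WT with a fold over 2. By edgeR, 4 member names and 19 member copies had an unadjusted p under 0.05 in G1 and WT. The summed level, −0.87 for G4 and WT on the log2 scale, was −0.73 with library totals, −0.11 over whole values, −1.66 far from genes and −1.04 without leading copies. For G4 and G1 it was −0.60, and −0.46, 0.15 (reversed), −1.48 and −0.78, and for G1 and WT −0.27 and −0.17 far from genes. Whole values leave out most paired LTRs. MuRRS-int in G1 and WT turned to 0.040 far from genes, MuRRS4-int in G4 and G1 to 0.22 there, and LTRIS_Mus in G4 and G1 to −0.10 without its leading copy; the cause was not tested. The LTRIS2 exonic sum in G4 and WT, negative in the main analysis, turned to 0.69 without the Prss35 copy, which carried it. Library totals moved the median of all names by 0.135 in G4 and WT, and the median of all names over copies far from genes was 0.433. The replicate numbers did not pair the libraries (correlations of −0.08 to 0.09 for same-numbered libraries), and with a replicate block 5, 3 and 5 names and 29, 8 and 26 copies were called. Leaving out single libraries gave 5, 2 to 3 and 4 to 5 names, 27 to 30, 6 to 10 and 20 to 27 copies, and summed levels of −0.91 to −0.84, −0.29 to −0.24 and −0.64 to −0.58. The main filter left 1456 member copies untested; a minimal filter tested 390 copies and called 39 in G4 and WT.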
